A study of Mus musculus with 24 samples.

Results

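Cytosolic ribosomal protein genes were examined in RNA of the medial prefrontal cortex (mPFC) of mouse offspring on postnatal day 21 (P21). Members were chosen by symbol: Rpl or Rps followed by a digit, Rplp0, Rplp1, Rplp2 and Rpsa, without the Rps6k kinases and without symbols that mark a pseudogene (-ps). Of 24972 genes in the tables, 89 matched, and 84 of these had a mean of at least 10 normalized counts over the 12 libraries of each table. The other 5 were Rpl10l, Rpl26, Rpl32l, Rpl39l and Rpl3l. By symbol alone, 49 members were counted to the large subunit (Rpl and Rplp symbols) and 34 to the small subunit (Rps symbols and Rpsa). The large subunit count includes Rpl7l1 and Rpl37rt. The remaining member, Rps19bp1, encodes a protein that binds Rps19 and is no ribosomal protein itself, and it was kept because the rule is by symbol.

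There were 24 libraries, 6 in each of 4 groups, MO and SAL offspring of either sex. C57BL/6J dams were injected subcutaneously each day with morphine sulfate (MO) or saline (SAL), starting 1 week before breeding and going on until weaning on P21. The morphine dose was raised stepwise over the first days to 10 mg/kg and then held there through pregnancy and lactation. The sires were DBA/2J, and all offspring of all groups were wild-type B6D2F1/J hybrids. The exposure was given to the dam and ran through gestation and lactation, so prenatal and postnatal exposure cannot be told apart. Libraries are named PFC1 to PFC24 as in the labels, and littermates are not named.

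The cytosolic ribosome reads mRNA and joins amino acids. Its small subunit decodes the message and its large subunit forms the peptide bond, and each ribosomal protein is normally present once per ribosome, apart from the stalk proteins Rplp1 and Rplp2. Messenger RNAs of these proteins are short, abundant and stable, and most start with a C and a run of pyrimidines at the cap, the 5′ terminal oligopyrimidine (TOP) motif, through which mTORC1 and Larp1 regulate their translation together. Many processed pseudogenes, intronless copies made by reverse transcription, resemble these genes closely.

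Values are normalized counts as deposited, 1 table for each sex, and the tables were normalized separately, so levels were compared only within a sex. Member means ran from 19.5 to 7540 in males (median 2878) and from 20.3 to 8203 in females (median 3242), while the median over all genes with a mean of at least 10 was 366 in males and 357 in females. Of the 84 members, 75 in males and 76 in females had a mean of at least 1000. Together they took 1.42% to 2.81% of the normalized counts of a library. The highest means belonged to Rpl3 (7540 in males, 8203 in females) and Rpl4 (7172 and 7750), both proteins of the large subunit core. Per kilobase of transcript, the highest levels were those of the stalk protein gene Rplp1 (12546 in males, 14981 in females), of Rpl41, which encodes a very small protein (10838 and 12175), and of Rps21 (8897 and 10536).

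The lowest levels per kilobase were those of Rps27 (56.5 in males, 58.9 in females), Rpl30 (63.5 and 95.7) and Rpl34 (86.3 and 97.7). For each of them, another row of the tables with a nearly identical coding sequence was listed at a level usual for ribosomal protein genes, and the same held for Rpl26, which did not reach the mean of 10. Coding sequences were compared in the GENCODE M21 transcripts (build GRCm38). Positions count from the A of the start codon, and capitals in the stretches below mark the bases that differ between gene and copy.

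Rps27 lies at chr3:90212522-90213651 on the minus strand and Rps27rt, annotated as protein coding, at chr9:114982366-114982739 on the minus strand. Over 252 coding bases they differ at 0 positions, and both begin with the same 60 bases.
Rps27 and Rps27rt: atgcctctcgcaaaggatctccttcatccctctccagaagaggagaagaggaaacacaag

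Rpl30 and its copy Gm12191, a processed pseudogene, differ at 1 of 345 coding bases.

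Rpl34 lies at chr3:130726831-130730398 on the minus strand and Rpl34-ps1, a processed pseudogene, at chr6:71124610-71124963 on the plus strand. They differ at 2 of 351 coding bases, T132C and C318G.
Rpl34, bases 112 to 171: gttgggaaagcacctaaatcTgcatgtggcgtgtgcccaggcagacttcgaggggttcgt
Rpl34-ps1: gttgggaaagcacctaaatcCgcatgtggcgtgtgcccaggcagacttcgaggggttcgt

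Rpl26 lies at chr11:68901583-68906989 on the plus strand and Gm15772, a processed pseudogene, at chr5:3236431-3236868 on the plus strand. They differ at 2 of 435 coding bases, C177T and T288C.
Rpl26, bases 157 to 216: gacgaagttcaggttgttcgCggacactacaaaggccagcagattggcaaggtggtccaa
Gm15772: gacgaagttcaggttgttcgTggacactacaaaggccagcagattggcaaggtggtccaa

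In these 4 pairs nearly all of the normalized counts stood on the copy. Rps27rt and Rpl37rt match the symbol pattern and are counted among the 84 members, while the Gm and -ps rows are not. Rps27 had a mean of 19.5 in males and 20.3 in females, and Rps27rt had 2789 and 3277, so that Rps27 held 0.691% of their sum in males and 0.652% in females. Rpl30 had 36.2 and 54.6, against 2043 and 2336 for Gm12191. Rpl34 had 53.8 and 61.0, against 1364 and 1554 for Rpl34-ps1. Rpl26 was listed at 0 in 10 of 12 male and 8 of 12 female libraries and reached at most 34.6, while Gm15772 had 4168 and 4727. The other direction was seen for Rpl37 (2553 in males, 2935 in females), whose copy Rpl37rt had 68.7 and 81.6, and for Rpl14 (2941 and 3184), whose copy Rpl14-ps1 had 269 and 313. The plot of parent genes and copies shows that no pair was near equal.

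**Figure D1:**
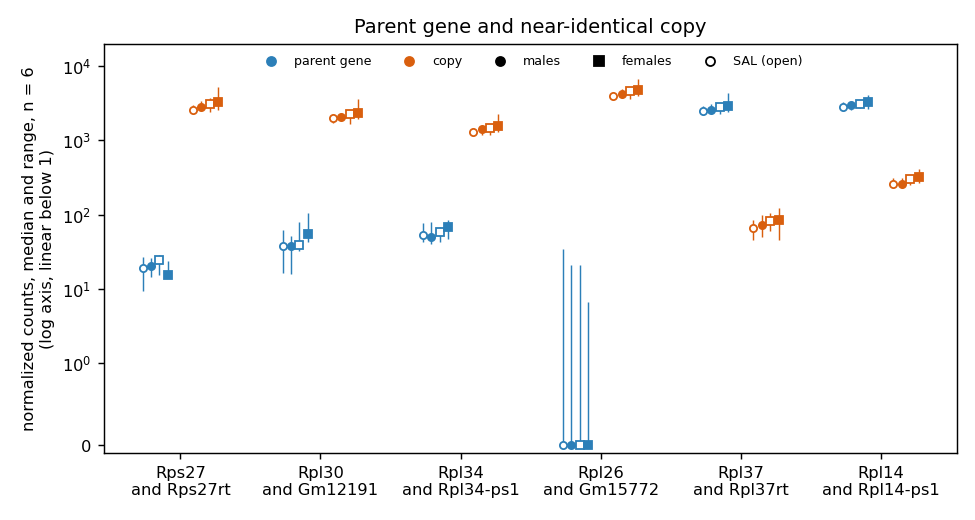
Normalized counts (log axis, linear below 1) of 6 genes (blue) and of their near-identical copies (orange), with the median (point) and the range (bar) of the 6 libraries of each group, for males (circles), females (squares), SAL (open) and MO (filled). For Rps27, Rpl30, Rpl34 and Rpl26 the copy lies far above the gene in every group, and for Rpl37 and Rpl14 it lies below.

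Of 82 members with transcripts in GENCODE M21, 79 shared at least 1 stretch of 85 bases, the read length, with another annotated gene, and 21 shared 50% or more of their stretches. For 19 members the other gene was itself a row of the tables. Reads were assigned to transcripts by Salmon from STAR alignments, with settings that are not given in the sources used here, and the values of single members that share sequence are uncertain, and a value of Rps27, Rpl30 or Rpl34 below is the value of that row only.

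Sums of the normalized counts were nearly equal, between about 14700000 and 16000000 per library. The value of 1 read could only be estimated, from the most frequent spacing of low values, and gave about 13500000 to 20100000 reads per library, an estimate of depth that is not exact. Within a table, libraries correlated at 0.992 to 0.995 in males and at 0.986 to 0.995 in females on the log2 scale. All 9 markers of cortical excitatory neurons (Slc17a7, Camk2a and others) were detected in every group. The female MO library PFC1 stood apart. On the log2 scale its mature oligodendrocyte markers were 1.82 above the mean of the female libraries, its neutrophil markers 3.78 and its striatal projection neuron markers 1.41. Its microglial and astrocyte markers were both 0.76 above. Its erythroid markers were 1.47 above, but PFC5, also female MO, was higher on this measure at 1.89. Excitatory neuron markers of PFC1 were 0.40 below (-0.40) as a mean over genes. Their summed level in PFC1, 126472, was however the highest of the female MO libraries (median 120221), while SAL libraries had 112207 to 128367. Among males, PFC16 (SAL) had striatal projection neuron markers 1.16 above the mean of the male libraries, and PFC13 (MO) 0.62 above. In bulk RNA, fewer cells of a type and less RNA per cell cannot be told apart. The columns of 11 libraries (4 female MO, 4 female SAL, 2 male MO and 1 male SAL) carry the suffix combined, and what was combined is not stated.

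In males, 2 of 84 ribosomal protein genes were higher in MO than in SAL at an unadjusted p of 0.05 and 0 were lower (limma), where 1.33% of all 16662 genes tested were higher and 1.52% lower. These were Rpl39 and Rps14, and 0 members passed the Benjamini-Hochberg adjustment over all genes, as did 0 genes of the whole table. Log2 fold changes of the members were small and mostly above 0: 80 of 84 were above 0, with a median of 0.07 and a range of -0.12 to 0.17, while 49.9% of all genes were above 0, with a median of -0.00. The groups overlapped for all 84 members, and only 0.06% of all genes tested had groups that did not overlap. The median standard error of a member was 0.06, and the 95% interval reached above a 1.5-fold increase for 2 members, the low rows Rps27 and Rpl30.

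Rpl39, which lines the peptide exit tunnel of the large subunit (chrX:37082518-37085222, minus strand, RefSeq, GRCm38.p6), had 1770, 2004 and 2213 normalized counts as the lowest, median and highest value of the 6 male SAL libraries, and 1978, 2243 and 2432 in the 6 male MO libraries. Of the 6 MO libraries, 4 lay above every SAL library and 2 within their range. The log2 fold change was 0.14 ± 0.06 (SE, n = 6 and 6, limma p = 0.0295, adjusted p = 1.00, exact 2-sided permutation p = 0.0563). Rps14, a protein of the small subunit platform, had 3808, 4347 and 4753 in male SAL and 4331, 4762 and 5364 in male MO. Its log2 fold change was 0.12 ± 0.06 (SE, limma p = 0.0484, adjusted p = 1.00, exact permutation p = 0.0779). Of the 6 MO libraries, 3 lay above every SAL library and 3 within their range. Rpl22, Rpsa and Rpl41 had the same sign and did not pass, at log2 fold changes of 0.12 (exact permutation p = 0.0931), 0.09 (0.0628) and 0.12 (0.136). At the other end stood Rps4l at -0.12 (SE 0.12). The count of 2 higher members was 0 with array weights or without the trend in limma, and 0 (without PFC12, PFC14, PFC15, PFC16, PFC17 or PFC19) to 10 (without PFC10 or PFC11) when 1 library was left out. Of all genes tested, 261 of 16587 were higher without PFC10 and 314 of 16580 without PFC11. The median log2 fold change was 0.03 without PFC19 and 0.04 without PFC16.

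In females, 0 members were higher and 1, Rps27, was lower in MO at an unadjusted p of 0.05, where 1.81% of all 16717 genes tested were higher and 1.12% lower, and again 0 members passed the adjustment. Of the 84 log2 fold changes, 81 were above 0, against 50.5% of all genes, with a median of 0.15 against 0.00 over all genes. The groups overlapped for all 84 members here too, against 0.132% of all genes without overlap. Their log2 fold changes ranged from -0.49 (Rps27) to 0.35 (Rpl30), and both of these ends were rows of low level with a near-identical copy. Without PFC1 the median was 0.05, with 77 of 84 above 0. The median standard error was 0.12, against 0.06 in males, and the 95% interval passed 1.5-fold upwards for 1 member, Rpl30.

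Rps27, a zinc finger protein of the small subunit, had 15.4, 24.4 and 28.7 normalized counts as the lowest, median and highest of the female SAL libraries and 13.9, 15.3 and 23.4 in female MO. Of the 6 SAL libraries, 4 lay above every MO library, and PFC2 and PFC22 lay within the MO range. The log2 fold change was -0.49 ± 0.19 (SE, n = 6 and 6, limma p = 0.0186, adjusted p = 0.918, exact permutation p = 0.0216). The row of Rps27rt, with the same coding sequence and a level far higher, had 2404, 3102 and 3696 in female SAL and 2589, 3263 and 5217 in female MO, and its log2 fold change was 0.17 ± 0.15 (SE, limma p = 0.251, exact permutation p = 0.353). With both rows summed the log2 fold change was 0.17 (SE 0.14) and did not pass. Rps27 held 0.267% to 1.10% of the counts of the pair in a female library. In males Rps27 had a log2 fold change of 0.17 ± 0.24. The difference between the sexes was 0.66 (males minus females, SE 0.31, limma interaction, adjusted p = 1.00). Rps27 was the only 1 of the 84 members past the unadjusted threshold in the interaction, where 2.01% of 16502 genes were called, and 0 members passed the adjustment.

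**Figure D2:**
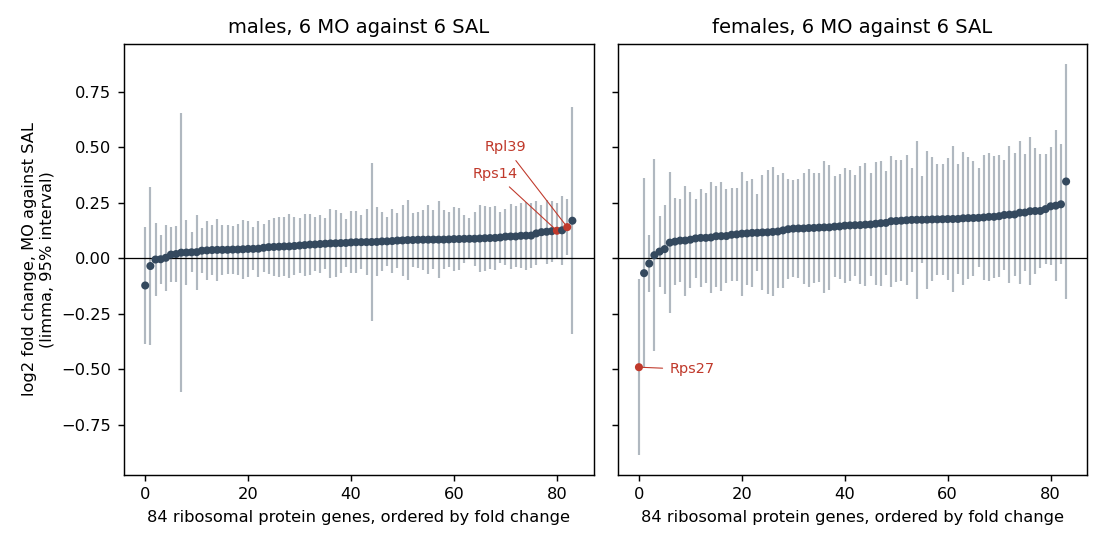
Log2 fold change of MO against SAL for the 84 ribosomal protein genes in males and in females, each ordered by its value, with 95% intervals from limma. Red points have an unadjusted p under 0.05: Rps14 and Rpl39 in males and Rps27 in females, and nearly all other points lie slightly above 0 with intervals that include 0.

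Large and small subunit genes had like values. The median log2 fold change was 0.07 for large and 0.07 for small subunit members in males, and 0.14 and 0.16 in females. The stalk genes Rplp0, Rplp1 and Rplp2, whose proteins recruit elongation factors, had 0.09, 0.08 and 0.07 in males and 0.17, 0.17 and 0.11 in females, and 0 of 3 passed in either sex. Rps6, the small subunit protein that S6 kinases phosphorylate below mTORC1, had 4125, 4464 and 4663 normalized counts as the lowest, median and highest in male SAL and 4192, 4538 and 4936 in male MO, a log2 fold change of 0.03 (95% interval -0.07 to 0.13). In females it had 3999, 4805 and 5417 in SAL and 4267, 4809 and 6358 in MO, at 0.08 (-0.13 to 0.30). Rps27a, which is made as a fusion with ubiquitin, had 0.08 (-0.09 to 0.26) in males and 0.24 (-0.03 to 0.51) in females.

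Several members have paralogs, and the pairs differed in level more than in the comparison of MO with SAL. Rpl22 and its paralog Rpl22l1 had means of 1485 and 877 in males and of 1644 and 1026 in females, but per kilobase Rpl22 stood at 725 and Rpl22l1 at 1629 in males, since the Rpl22 transcript is longer. The X-linked Rpl36a and the autosomal Rpl36al had 2835 and 1520 per kilobase in males and 3265 and 1626 in females. Rpl7, a large subunit protein, had 3948 normalized counts in males and Rpl7l1, which is known from ribosome assembly, had 755. Rps4x, encoded on the X chromosome, had 4400 in males and 5060 in females, while its relative Rps4l had 124 and 111. Rps27l, the p53-responsive relative of Rps27, had 190 in males and 216 in females. For Rpl3 and Rpl10, the muscle and germline paralogs Rpl3l and Rpl10l stayed under the mean of 10, and so did Rpl39l. None of Rpl22l1, Rpl36a, Rpl36al, Rpl7, Rpl7l1, Rps4x, Rps4l, Rps27l, Rpl3 and Rpl10 passed the unadjusted threshold in either sex.

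Differences between single libraries ran through almost all members at once. For each library the mean over the 84 members of log2(normalized count + 1), less the mean of the 12 libraries of its table, was taken as the member mean. In male SAL it had -0.19, -0.02 and 0.11 as lowest, median and highest value, and in male MO -0.12, 0.06 and 0.21. Female SAL had -0.31, -0.03 and 0.09, and female MO -0.25, 0.02 and 0.51. MO was above SAL by 0.07 in males, with a pooled SD between libraries of 0.12, and by 0.14 in females, with an SD of 0.22, so both differences were smaller than the spread between libraries of a group. The groups overlapped widely, and from the lowest to the highest library the member mean spanned 1.32-fold in males and 1.77-fold in females (1.34-fold without PFC1).

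**Figure D3:**
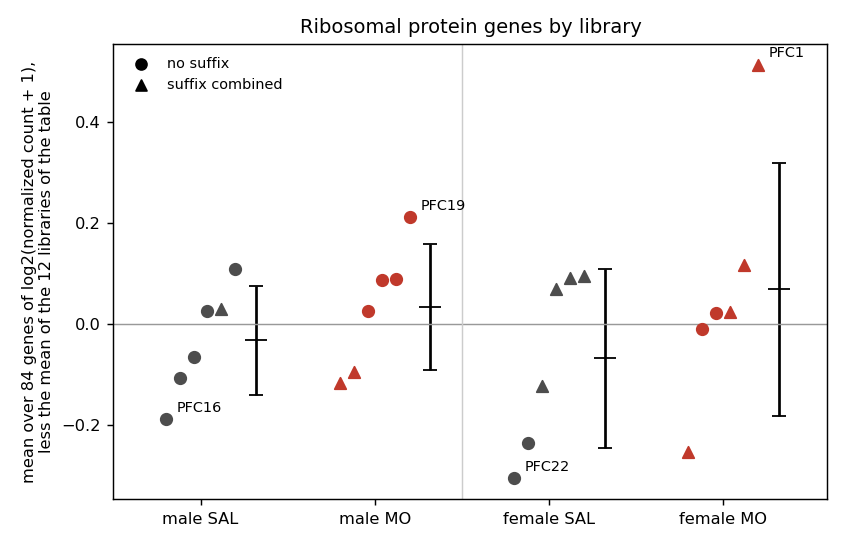
Member mean of each library on the log2 scale, relative to the mean of the 12 libraries of its table, with the mean and SD of each group of 6 beside the points. Triangles are libraries with the suffix combined. MO and SAL overlap in both sexes, from -0.19 (PFC16) to 0.21 (PFC19) in males and from -0.31 (PFC22) to 0.51 (PFC1) in females.

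In PFC19 (male MO), 83 of 84 members lay above their own mean over the male libraries, with a median deviation of 0.22, and the exception was Rpl34. In PFC16 (male SAL), 82 of 84 lay below, with a median of -0.20, the exceptions being Rpl30 and Rpl7l1. Among females, 81 of 84 lay above their mean in PFC1 (MO), all but Rps19bp1, Rps27 and Rps4l, with a median deviation of 0.54. In PFC22 (SAL), 83 of 84 lay below, all but Rps27, with a median of -0.32. Members of the large and of the small subunit shifted together: the difference between their means lay between -0.05 and 0.04 in all 24 libraries.

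After group means were removed, the first principal component held 58.7% of the variance of the members in males and 85% in females (76.0% without PFC1), against 28.5%, 46.8% and 30.6% for all other genes with a mean of at least 100. A member correlated with the mean of the other members at a median r of 0.93 over the 12 male and 0.98 over the 12 female libraries (0.96 without PFC1), while the median of other genes with the member mean was -0.02 and -0.20. These correlations describe genes measured in the same libraries and are not independent of each other. Over both sexes the closest members were Rps15 (r = 0.99 in males, 0.99 in females), Rpl19 (0.99 and 0.98) and Rpl38 (0.99 and 0.98). The loosest were Rps27 (0.51 and -0.25), Rps4l (0.38 and -0.03) and Rps19bp1 (0.57 and 0.12), followed by Rpl30 (0.30 and 0.41) and Rpl34 (0.41 and 0.65).

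The loose rows among the low ones had copies that followed the members closely. Rps27rt correlated with the mean of the other members at 0.84 in males and 0.99 in females, Gm12191 at 0.94 and 0.97, Rpl34-ps1 at 0.97 and 0.98, and Gm15772 at 0.94 and 0.98. Of 10423 other genes with a mean of at least 100 in both tables, those most like the member mean over the 24 libraries included Rpl34-ps1 (r = 0.98), Gm15772 (0.97), Fau (0.96) and Cox4i1 (0.96), the last a subunit of cytochrome c oxidase. Fau encodes the ribosomal protein eS30 as a fusion with a ubiquitin-like protein, and its symbol falls outside the pattern. Least like it were Sort1 (-0.93), Arhgap32 (-0.93), Ncoa6 (-0.92), Usp15 (-0.92) and Gpr158 (-0.92). Without PFC1 these 9 correlations ranged from 0.94 to 0.97 at the one end and from -0.90 to -0.87 at the other.

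**Figure D4:**
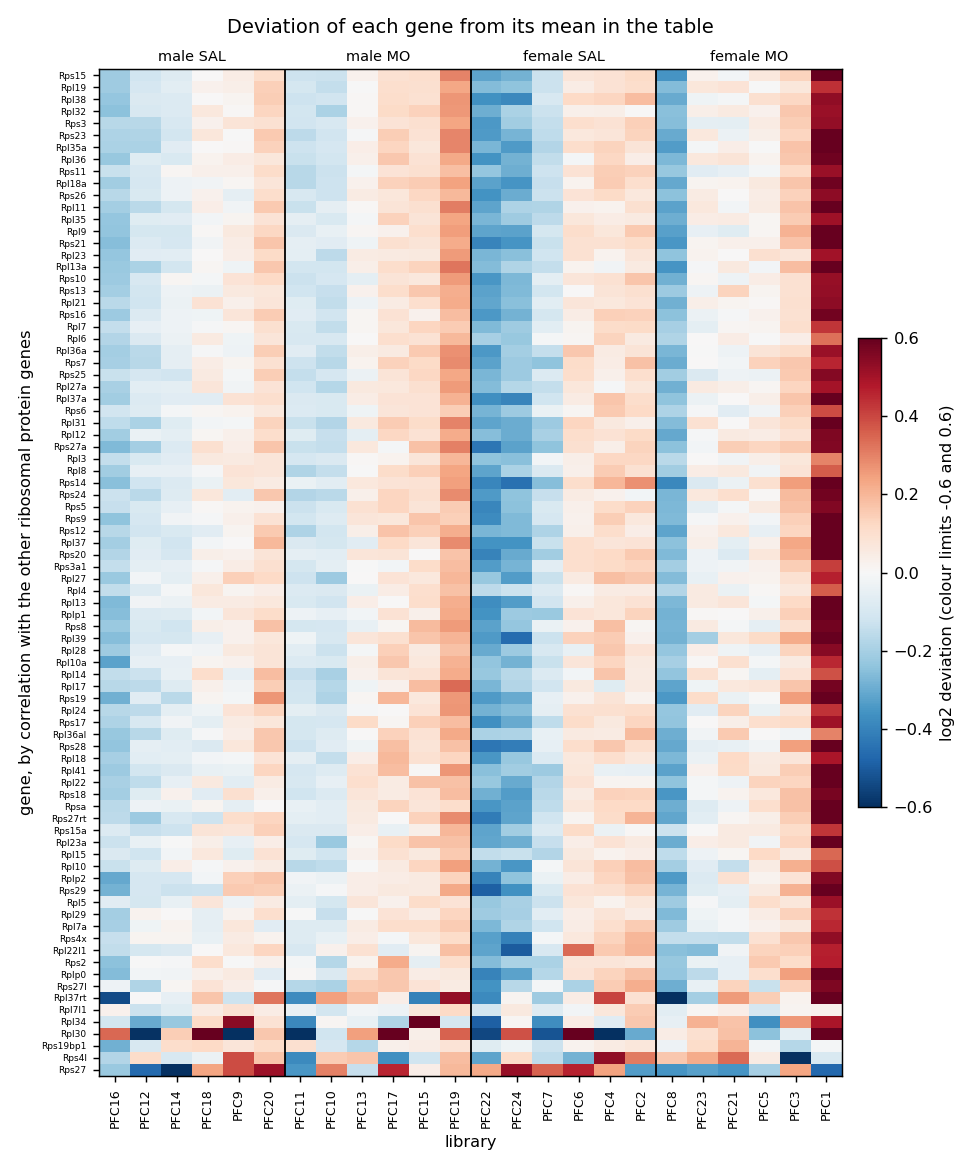
Deviation of each of the 84 ribosomal protein genes (rows) from its mean over the 12 libraries of its table in the 24 libraries (columns, by group and then by member mean), in log2 units with colours limited to -0.6 and 0.6. Columns are nearly uniform for most rows, and the rows at the bottom (Rpl34, Rpl30, Rps19bp1, Rps4l and Rps27) do not follow them.

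The start of the members' transcripts is shown as a description, and its relation to their shared movement was not tested. RefSeq promoter windows (GRCm38.p6, 250 bases before to 50 after each annotated start) were found for 63 of the 84 members. A run of at least 8 pyrimidines, from 10 bases before to 15 after the start, was present in 23 of the 63 (36.5%), against 11% of all 27025 genes with a window. The letters CTTTCC within 25 bases of the start on the sense strand were present in 11 (17.5% against 2.92%), and CCGGAAG, the core bound by Ets factors such as Gabpa, in 24 on either strand anywhere in the window (38.1% against 9.93%). TATAAA at 40 to 11 bases before the start was present in 1 (1.59% against 2.51%). The CTTTCC letters and the pyrimidine run can overlap, and a match is a description of letters and not a site. The windows of the members below run from 30 bases before the start to 20 from it, on the strand of the gene, with the longest pyrimidine run near the start in capitals. They were chosen, with the letters seen, to show members with and without the run: Rps15, which followed the other members most closely, has a run of only 3 at its annotated start. Rps27 and Rps27rt share the letters from CTTTCC onwards, and the bases before these differ.
Rpl38 (chr11:114668550-114668599, plus): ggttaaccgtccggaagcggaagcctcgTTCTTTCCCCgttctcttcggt
Rpl28 (chr7:4792935-4792984, plus): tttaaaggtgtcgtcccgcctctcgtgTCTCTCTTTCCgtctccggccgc
Rps10 (chr17:27635225-27635274, minus): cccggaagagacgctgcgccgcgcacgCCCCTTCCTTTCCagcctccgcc
Rps6 (chr4:86857348-86857397, minus): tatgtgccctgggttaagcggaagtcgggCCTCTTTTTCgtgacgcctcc
Rplp2 (chr7:141447621-141447670, plus): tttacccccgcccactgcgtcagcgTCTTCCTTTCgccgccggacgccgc
Rps15 (chr10:80292401-80292450, plus): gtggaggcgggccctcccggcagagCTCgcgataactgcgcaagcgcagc
Rps27 (chr3:90213629-90213678, minus): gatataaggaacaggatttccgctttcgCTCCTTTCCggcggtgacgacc
Rps27rt (chr9:114982720-114982769, minus): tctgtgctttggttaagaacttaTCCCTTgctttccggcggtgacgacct

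The member mean was set against other measures of the same libraries, 7 in each sex and 14 in all. Of these measures, the mature oligodendrocyte markers, the estimated depth and the ribosomal RNA precursor Rn45s were added to those planned. Permutation tests (100000 resamples, 2-sided) were used, with Benjamini-Hochberg adjustment over all 14. Genes of translation elongation and other TOP mRNAs (19 genes such as Eef1a1, Tpt1 and Pabpc1) followed it most closely in females (r = 0.97, permutation p = 1e-05, the smallest that these permutations can give, adjusted p = 0.00014, rho = 0.96, p = 1e-05) and closely in males (r = 0.92, permutation p = 3e-05, adjusted p = 0.00014, rho = 0.93, p = 6e-05). Without the 2 libraries farthest from the median of the list, r was 0.96 in females and 0.82 in males. Nuclear-encoded genes of oxidative phosphorylation (84 genes) did so as well, at r = 0.93 in males (p = 4e-05, adjusted p = 0.00014, rho = 0.92, p = 5e-05, 0.88 without 2 libraries) and 0.89 in females (p = 6e-05, adjusted p = 0.000168, rho = 0.83, p = 0.00166, 0.84 without 2 libraries). Within the 8 female libraries with the suffix combined these relations had r = 0.98 and 0.91, and within the 9 male libraries without it 0.90 and 0.93. The other subsets held 3 or 4 libraries, too few for a value. Other pathway lists were not tested against the member mean. Mitochondrial ribosomal protein genes had r = 0.95 in males and 0.65 in females, and initiation factors 0.81 and -0.44. Ribosome biogenesis had 0.59 and -0.62, the mTORC1 pathway 0.71 and -0.63, and the integrated stress response -0.33 and 0.50.

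Ribosomal protein transcripts are short: the median length of 82 members with an annotated length was 772 bases, against 2916 for the 10318 other genes with a mean of at least 100 in males. In each library the deviations of those other genes were fitted on log2 transcript length. The slope ran from -0.09 to 0.10 in males and from -0.13 to 0.09 in females, a negative slope meaning that short transcripts were relatively high in that library. The member mean followed this slope at r = -0.93 in males (p = 2e-05, adjusted p = 0.00014, rho = -0.86, p = 0.00061, -0.85 without 2 libraries) and at -0.90 in females (p = 0.00027, adjusted p = 0.00063, rho = -0.74, p = 0.00737, -0.77 without 2 libraries). Within the 9 male libraries without the suffix and the 8 female libraries with it, r was -0.92 and -0.92. Evaluated at the lengths of the 82 members, the slope gave 0.16 in PFC19, where 0.21 was measured, and -0.17 in PFC16, where -0.19 was measured. In PFC1 it gave 0.19 and 0.52 was measured, and in PFC22 it gave -0.10 and -0.31 was measured.

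Less the value given by length, the member mean lay between -0.09 and 0.09 in males (SD 0.05, against 0.12 before) and between -0.20 and 0.33 in females (SD 0.14, against 0.22 before). The difference of MO from SAL over these 82 members was 0.07 in males before and 0.02 after, and 0.14 and 0.11 in females. This comparison was chosen after the data were seen, and the part of transcript length or RNA integrity in the member mean was not tested beyond these values.

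**Figure D5:**
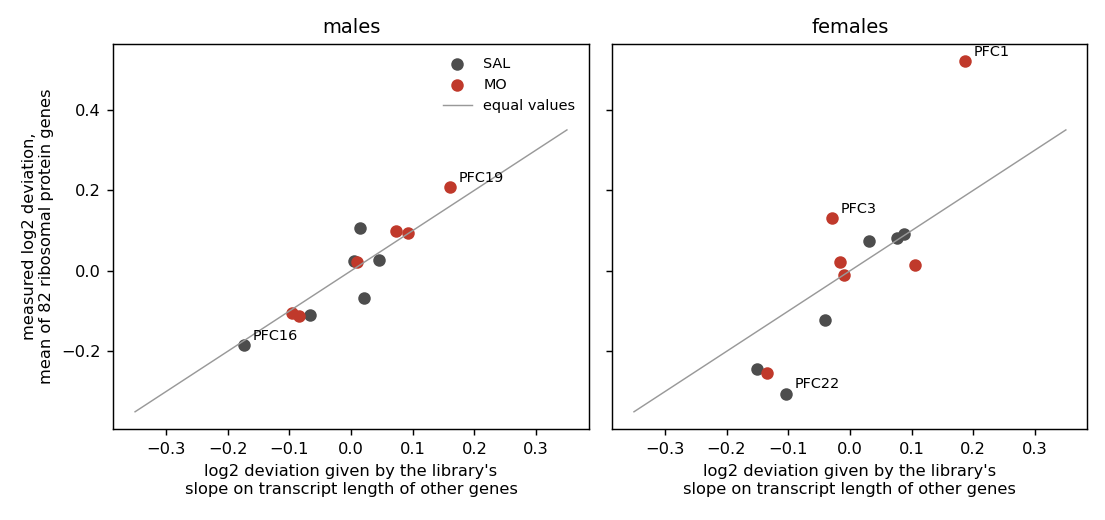
Measured log2 deviation of the mean of 82 ribosomal protein genes in each library (vertical axis) against the deviation given at their lengths by the slope of all other genes on transcript length (horizontal axis), for males and females, SAL (grey) and MO (red). The grey line marks equal values. Male libraries lie near it, and PFC1 (0.19 given, 0.52 measured) lies farthest above.

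Of the remaining measures, the number of genes listed at 0, from 7781 to 8292 per library, was higher in male libraries with a higher member mean (r = 0.72, p = 0.00864, adjusted p = 0.0122, rho = 0.78, p = 0.0043, 0.62 without 2 libraries), and in females r was -0.54 (p = 0.0776, adjusted p = 0.0988, rho = -0.16, p = 0.614, -0.06 without 2 libraries). The estimated depth had r = -0.70 in males (p = 0.00872, adjusted p = 0.0122, rho = -0.72, p = 0.0107, -0.51 without 2 libraries) and -0.43 in females (p = 0.156, adjusted p = 0.182, rho = -0.26, p = 0.417, -0.38 without 2 libraries). Rn45s, the 45S precursor of ribosomal RNA, which has no poly(A) tail as a rule, was related to the member mean in males (r = 0.75, p = 0.00451, adjusted p = 0.00789, rho = 0.76, p = 0.0054, 0.54 without 2 libraries), and in females r was -0.13 (p = 0.666, adjusted p = 0.717, rho = -0.34, p = 0.275, -0.21 without 2 libraries). Mature oligodendrocyte markers had r = 0.81 in females (p = 0.00115, adjusted p = 0.0023, rho = 0.83, p = 0.00163, 0.60 without 2 libraries, PFC1 among them) and 0.07 in males (p = 0.828, adjusted p = 0.828, rho = 0.05, p = 0.887, -0.39 without 2 libraries). Within the 9 male libraries without the suffix these 4 measures had r = 0.73, -0.76, 0.77 and -0.04, and within the 8 female libraries with it -0.64, -0.72, -0.39 and 0.79. All 8 mature oligodendrocyte markers had a log2 fold change above 0 in females (median 0.28) and in males (median 0.24). In both sexes 0 of them were called, and none was at 0. In females their summed level ran from 46722 to 306905 in MO libraries (median 65159), the highest in PFC1. SAL libraries had 31551 to 139181, with a higher median of 77210. Microglial markers of females summed to 6746 to 12374 (MO) against 4775 to 9099 (SAL), and astrocyte markers to 68590 to 135104 against 66889 to 86356. Against the member mean, microglial markers had r = 0.92 in females and -0.04 in males, without a test. Astrocyte markers had 0.79 and -0.73, and excitatory neuron markers -0.80 and -0.40. Of 12 marker lists, genes passed the unadjusted threshold in females for endothelium and pericytes (3 of 8 higher), neutrophils (3 of 8 higher) and erythroid cells (1 of 8 higher). The neutrophil markers summed to 448 in PFC1, where the median of the female MO libraries was 35.7. In males genes passed for meninges and fibroblasts (5 of 8 lower), erythroid cells (2 higher and 1 lower of 8) and choroid plexus and ependyma (1 of 8 higher). Of all genes tested, 1.81% were higher and 1.12% lower in females, and 1.33% and 1.52% in males. In the other lists 0 passed, and 0 marker genes passed the adjustment. The part of depth, ribosomal RNA and cell composition in the member mean was not tested.

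Within the suffix, the difference of MO from SAL in the member mean was 0.07 in the 8 female libraries with it (4 MO and 4 SAL) and 0.28 in the 4 without (2 and 2). In males it was 0.15 in the 9 libraries without the suffix (4 MO and 5 SAL) and -0.14 in the 3 with it (2 MO and 1 SAL).

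Other genes of the pathway gave few calls, with the same shares of all genes (1.33% and 1.81% higher, 1.52% and 1.12% lower) as background. Calls were made with limma at an unadjusted p of 0.05, and the p-values beside them are from exact permutation. Fau and Rack1, ribosomal proteins outside the symbol pattern, had log2 fold changes of 0.10 and 0.05 in males and 0.14 and 0.11 in females, and neither passed in either sex. Of 19 genes of elongation and TOP mRNAs, 0 passed in either direction in males (median 0.03) or females (0.04), and of 27 initiation factors tested 0 passed (medians 0.02 and -0.03). Of 35 genes of ribosome biogenesis, 2 were lower in males: Bysl, needed for the small subunit (544 ± 36.9 in MO, 597 ± 35.4 in SAL, SD, log2 fold change -0.13, exact permutation p = 0.0368), and Polr1b, a subunit of RNA polymerase I (185 ± 6.18 and 206 ± 17.6, -0.15, p = 0.0216). In females 1 was lower, Nop2, a methyltransferase of the 28S rRNA (352 ± 42.9 and 410 ± 30.7, -0.22, exact permutation p = 0.0238). The medians of the list were 0.02 in males and -0.04 in females.

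Of 26 genes of the mTORC1 pathway, 1 was higher in males, the S6 kinase gene Rps6kb2 (69.3 ± 6.99 in MO, 57.3 ± 9.81 in SAL, SD, log2 fold change 0.28, exact permutation p = 0.0411), and 0 passed in females (list medians 0.00 and -0.01). Of 20 genes of the integrated stress response, 1 was higher in females, the cystine transporter gene Slc7a11 (645 ± 70.9 and 543 ± 62.3, 0.25, exact permutation p = 0.0216), and 0 passed in males (medians 0.01 in females and -0.02 in males). Of 78 mitochondrial ribosomal protein genes, 2 were higher in males, Mrpl34 (361 ± 19.0 and 318 ± 25.5, 0.18, exact permutation p = 0.00866) and Mrpl41 (588 ± 28.6 and 535 ± 50.6, 0.14, p = 0.0519), with a median of 0.05 over the list, and 0 passed in females (median 0.01). Of 84 genes of oxidative phosphorylation, 1 was higher in males, Uqcr10 of complex III (1802 ± 158 and 1639 ± 116, 0.14, exact permutation p = 0.0801), with list medians of 0.06 in males and 0.06 in females. None of these genes passed the adjustment over all genes tested.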

How the data were processed

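Directional poly(A) RNA-seq libraries of 24 mPFC samples (6 per sex and drug group) were aligned by the authors to mm10 with STAR under a first-strand setting, quantified with Salmon and compared with DESeq2. The deposited tables, one per sex, hold a signal per gene: normalized counts that are not whole numbers, have nearly equal sums and do not return to whole reads (21.4% to 74.9% of values under 30 were within 0.02 of a multiple of the step of their library). Depth is therefore unknown apart from the estimate given, and tests for raw counts were not run. For P21 gene expression the study reports a single offspring per litter and sex, after small litters were combined, so libraries of a sex come from different litters. It reports too few dams for male and female libraries to come from separate litters, and the labels do not name the litter. P-values measure the spread between libraries, and the interaction treats all 24 as independent.

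Values were transformed as log2(value + 1), genes with a sum of at least 10 over the 12 libraries of a table were kept, and limma 3.58.1 in R 4.3.3 tested drug group separately per sex (moderated variances with a mean trend, Benjamini-Hochberg over all genes kept). The fit was checked on simulated data with independent noise for each gene and fold changes larger than those of the members. That check does not cover small changes in genes that move together. Exact permutation tests used all 924 relabellings, with 0.00216 as the smallest p. Lengths and transcripts are from GENCODE M21, promoters from RefSeq. Python 3.11.15, SciPy 1.17.1 and matplotlib 3.10.9 were used.

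Members, gene lists, 12 marker lists and the rule for named genes (paralogs and special cases, smallest p, ends of level and of correlation, most and least like genes) were chosen with earlier results of these data known. Rps27rt, Rpl37rt and the copies named with them were chosen after their values were seen. Oligodendrocyte markers, estimated depth and Rn45s were not among the planned measures set against the member mean. Alternatives were other pseudocounts and filters, equal sums, scaling to Gapdh and Ppia, a term for the suffix combined, array weights, no trend, Spearman's correlation, leaving out each library and, added after seeing the data, near-identical copies summed and the slope on length removed. Some results are not reported here.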

Additional observations from a re-analysis of the deposited data

Results flagged for a closer look

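In 3 of 128 groups of 6 libraries examined over the named genes and the member mean (2.34%, where chance gives about 1 in 20, or 5%), the highest or lowest library lay far from the others. Rps27 in female SAL was lowest in PFC2, at 15.4 normalized counts, with the others between 23.2 and 28.7. Rps4l in female MO was lowest in PFC3, at 57.7, with the others between 101 and 136. Rpl30 in female MO was highest in PFC1, at 105, with the others between 43.2 and 58.3.

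The log2 fold change of Rps27 differed between the sexes by 0.66 (males minus females, limma interaction, adjusted p = 1.00). Under the 6 alternatives run for the interaction this difference stayed above 0. It passed the unadjusted threshold in all but the scaling to Gapdh and Ppia. Summing Rps27 with its copy Rps27rt was not among these 6. Rps27rt, with the same coding sequence and a level far higher, had a difference of -0.05 (males minus females, limma interaction, SE 0.17). The flagged difference was therefore that of the low Rps27 row only.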

How the results depend on the processing

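The count of members higher in MO in males, 2, rested on p-values near 0.05 and became 1 with no filter, with a mean of at least 10 and with scaling to Gapdh and Ppia, 5 with a term for the suffix combined, and 0 with array weights and without the trend. Leaving out 1 library at a time gave 0 to 10, with 10 without PFC10 or PFC11, 7 without PFC20 and 0 without PFC19, PFC16, PFC17, PFC15, PFC14 or PFC12. Over all genes in these fits, 259 of 16662 were higher with the term for the suffix. Without PFC10 it was 261 of 16587, without PFC11 314 of 16580 and without PFC20 228 of 16576. In females the 0 higher members became 10 with scaling to Gapdh and Ppia, which moved the split of all genes called from 302 higher and 188 lower to 623 and 47 (in males from 222 and 253 to 97 and 193). Without single libraries they became 0 to 18, with 18 without PFC8, where 483 of all 16654 genes were higher. The 1 lower member in females became 0 with scaling to Gapdh and Ppia and with near-identical copies summed, where Rps27 reversed to 0.17, and stayed 1 without each library. In males 0 members were lower throughout. In every one of these fits 0 members passed the adjustment.

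The median log2 fold change of the members stayed above 0, at 0.03 (without PFC19) to 0.10 (without PFC10) in males and at 0.05 (without PFC1) to 0.22 (without PFC8) in females, with 0.05 and 0.24 under scaling to Gapdh and Ppia, which moved the median of all genes by -0.03 and 0.09. The median correlation of a member with the others fell from 0.93 to 0.78 in males under that scaling and was 0.91 in males and 0.94 in females by Spearman. Without single libraries it was 0.92 to 0.94 in males and 0.96 to 0.98 in females. Rpl39 passed the unadjusted threshold without 6 of 12 libraries and Rps14 without 4.

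No paired analysis was possible because the labels do not name the litter. Low rows such as Rps27 rest on few reads, and their precision could not be computed from normalized counts.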
